A study of Homo sapiens with 8 samples.

Results

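RNA sequencing compared MEG-01 cells that received PMA together with Ceefourin 2 with MEG-01 cells that received Ceefourin 2 without PMA, so that the inhibitor was present on both sides. This comparison rests on 4 of the 8 libraries of the study, 2 in each group, chosen by their labels. MEG-01 is an established human megakaryoblastic leukaemia line that stands near the start of the platelet lineage. PMA, a phorbol ester, was given at 100 nM for 48 hours, alone or with 20 µM Ceefourin 2, and the cells with Ceefourin 2 alone are labelled with the same 48 hours. No source used here gives the dose of Ceefourin 2 without PMA, the time of the untreated cells or a solvent control. Untreated cells and cells with PMA alone, also 2 libraries each, supplied the PMA response without the inhibitor.

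Phorbol esters stand in for diacylglycerol and switch on protein kinase C, which signals through the MAP kinase cascade to AP-1 transcription factors, and megakaryoblastic lines answer by leaving the cell cycle and making platelet proteins. Ceefourin 2 blocks ABCC4, also named MRP4, a membrane pump that exports cyclic nucleotides, nucleotide analogues and eicosanoids and that platelets carry in their dense granules. Megakaryocytes enlarge, stop dividing, and stock granules, receptors and a marginal band of microtubules before they shed platelets.

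The Ceefourin 2 libraries held 59458967 and 58669250 counted fragments (replicates 1 and 2) and the PMA plus Ceefourin 2 libraries 52982156 and 89950886. Mitochondrially encoded genes took 2.77% and 3.11% of them without PMA and 8.32% and 4.94% with it, so PMA plus Ceefourin 2 replicate 1 stood apart from replicate 2. Log2 CPM correlated at 0.990 between the Ceefourin 2 replicates and at 0.991 between the PMA plus Ceefourin 2 replicates, across genes. Levels below are CPM, counts scaled by each library's TMM-adjusted total, given for replicate 1 and replicate 2 in that order, with n = 2 libraries in a group. The labels do not say whether replicates were separate cultures, so the p values measure the spread between these libraries, which may be technical. A gene is said to rise or fall where edgeR's quasi-likelihood test gave a Benjamini-Hochberg adjusted p below 0.05 over all 17314 tested genes. In bulk RNA, fewer cells of a type and less RNA per cell cannot be told apart.

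The megakaryocytic label was checked against 9 defining markers, on the deposited TPM scale, which divides by gene length. ITGA2B, a chain of the platelet fibrinogen receptor, stood at 323 and 396 TPM before PMA and GATA1, the master factor of the lineage, at 104 and 110.4 TPM. The summed level of the 9 markers was 726.6 and 754.2 TPM without PMA and 1665.6 and 1739.8 TPM with it. PF4, a platelet chemokine, was near 0 on both sides and reached at most 0.03 TPM in any of the 4 libraries. Of 4 lymphoid markers, 3 were at 0 TPM in all 4 libraries, CD3E and MS4A1 among them, and these 4 summed to at most 0.46 TPM.

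ABCC4, the target of the inhibitor, rose with PMA in its presence. The gene, on chromosome 13 from 95019829 to 95301475 (GRCh38, minus strand), went from 387 and 363 CPM to 697 and 632 CPM. The log2 fold change was 0.82 (SE 0.10, edgeR adjusted p = 0.000269), and both PMA libraries lay above both libraries without it. Against untreated cells PMA alone gave 0.81, and the difference of 0.01 between the responses was not called.

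PMA changed most of the tested transcriptome while the inhibitor was present. In edgeR 4842 genes rose and 4427 fell, which is 28.0% and 25.6% of the 17314 tested, or 53.5% in all. Of these, 2807 rose and 1747 fell at least 2-fold (16.2% and 10.1% of tested genes), and 800 rose and 121 fell at least 8-fold (4.62% and 0.699%). Large rises therefore outnumbered large falls although the numbers of calls were close. Rises made up 52.2% of the edgeR calls. With limma on log2(TPM + 1), which has no TMM scaling, rises made up 32.9% (2919 rises, 5950 falls). With a pseudocount of 0.1 that share was 34.3% (3029 and 5802). The median change of all genes was 0.02 in edgeR and -0.15 on log2(TPM + 1), so directions of small changes depend on the scaling. Protein-coding genes gave 4100 rises and 3936 falls of 13563 tested, and long noncoding RNA genes 512 rises and 277 falls of 2193.

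**Figure D1:**
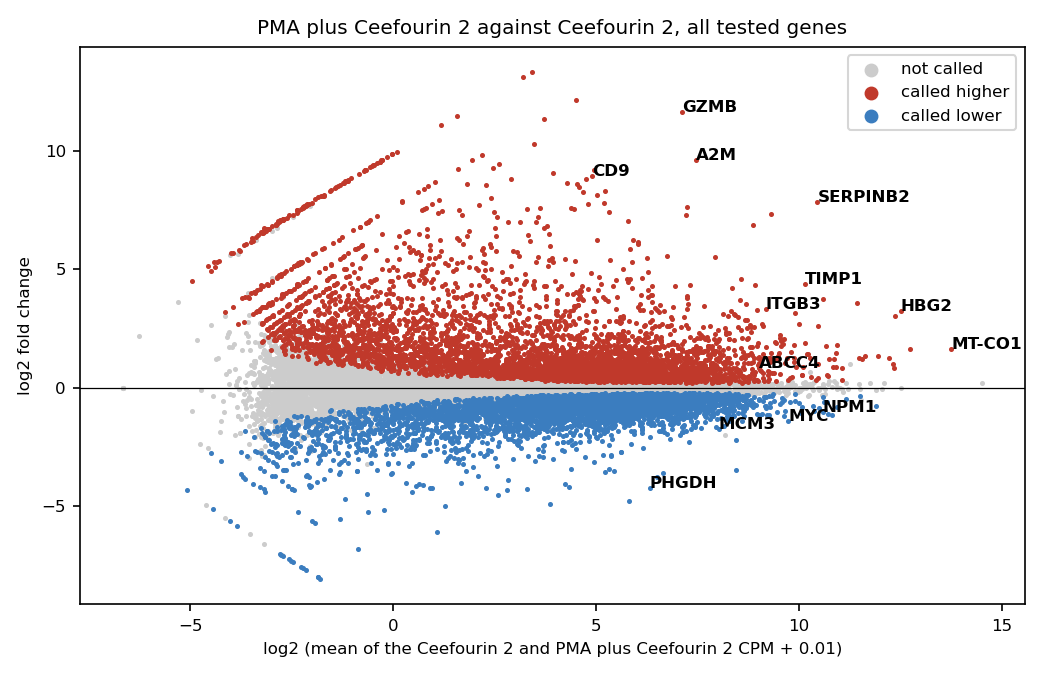
Each point is 1 tested gene; the horizontal axis is the log2 of the mean CPM of the groups plus 0.01, the vertical axis the log2 fold change of PMA plus Ceefourin 2 against Ceefourin 2, and colour marks the 4842 genes called higher and 4427 called lower. Large rises are more common than large falls, with GZMB and A2M at the top among well-measured genes and PHGDH near the bottom.

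The strongest rises were in genes that were silent or nearly so with Ceefourin 2 alone. GZMB, a serine protease of cytotoxic granules, went from 0.0935 and 0.0806 CPM to 287 and 275 CPM (log2 fold change 11.62, SE 0.61). A2M, a broad protease inhibitor carried in blood, rose from 0.561 and 0.322 CPM to 370.3 and 330.4 CPM (log2 fold change 9.62, SE 0.21). Libraries with and without PMA were far apart for both genes.

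PDGFB, a growth factor chain stored in platelet alpha granules, had 0 counts in both Ceefourin 2 libraries and 10.5 and 26.6 CPM with PMA, at least 779-fold higher when 3 counts over the group are taken as the floor. LRRC4B, a synaptic adhesion gene, also had 0 counts and then 16.6 and 26 CPM, at least 897-fold higher. A single count over the 2 Ceefourin 2 libraries was found for CCL4, a chemokine gene with a close copy that could take some of its reads, and it rose to 32.3 and 58.9 CPM, a ratio of 6190 with a 95% interval of 1110 to 244000. Other genes with 1 to 3 counts before PMA rose as well. The potassium channel gene KCNK3 reached 23.7 and 28.6 CPM (a ratio of 3380 with a 95% interval of 606 to 134000) and the neurotensin receptor gene NTSR1 reached 19.9 and 24.5 CPM (a ratio of 1440 with a 95% interval of 397 to 11900). The keratin gene KRT79 reached 5.89 and 9.50 CPM (a ratio of 1030 with a 95% interval of 184 to 40700), the sodium channel gene SCN7A 13.6 and 11 CPM (a ratio of 754 with a 95% interval of 209 to 6240), and EGFR, the epidermal growth factor receptor, 6.84 and 5.19 CPM (a ratio of 733 with a 95% interval of 131 to 29000). All intervals and floors cover counting error only.

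The largest falls were smaller than the largest rises. SOSTDC1, a secreted antagonist of BMP signals, fell from 13.1 and 9.92 CPM to 0.609 and 0.423 CPM, and the phosphatase gene ACPP from 15 and 22.5 CPM to 1.10 and 0.858 CPM. CDCA7, a cell cycle gene activated by MYC, fell from 44.8 and 31.8 CPM to 2.27 and 2.01 CPM (log2 fold change -4.17, SE 0.27). Also among the 10 largest falls were MS4A6A (-4.04), IGFL2 (-4.22) and the gene deposited under the symbol AC118754.1 (-4.30). Another 3 of the 10, CHAC1, PHGDH and JDP2, had Ceefourin 2 replicates that stood far apart. CHAC1 had 6.14 and 212 CPM and JDP2 0.981 and 11 CPM without PMA, and 3.39 and 4.58 and 0.244 and 0.459 CPM with it. Without Ceefourin 2 replicate 2 the log2 fold change was -0.61 for CHAC1 and -1.42 for JDP2, and neither was called. Nor was either called without PMA plus Ceefourin 2 replicate 1 (-4.57 and -3.69) or replicate 2 (-5.0 and -4.60).

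Among genes not encoded in mitochondria, the largest gain in TPM was in fetal globin. HBG2, a gamma globin chain, rose from 3519.6 and 3974 TPM to 25387 and 32283 TPM, and the gene model AC104389.5, which overlaps it and shares its reads, rose from 3735 and 3993 TPM to 21854 and 29781 TPM. Summed with HBG1, these took 0.729% and 0.803% of all TPM without PMA and 4.76% and 6.25% with it. Apart from globin, the largest gains were in TPT1 (3504 and 3403 TPM to 6805 and 7726 TPM), TIMP1, an inhibitor of matrix metalloproteases (223 and 233 TPM to 3758 and 4231 TPM), and the calcium-binding protein S100A6 (766 and 831 TPM to 4404 and 4132 TPM). The iron store subunit FTL (7269.8 and 7379 TPM to 9909 and 11200.0 TPM), the actin monomer binder TMSB4X (1465 and 1409.6 TPM to 3823 and 4902 TPM) and SH3BGRL3 (995 and 999.8 TPM to 2694 and 2938 TPM) followed. The largest losses were in the nucleolar chaperone NPM1 (5762 and 5349 TPM to 2340.2 and 2229.9 TPM), the small noncoding RNA gene BCYRN1 (3102 and 3266 TPM to 1611 and 1348 TPM) and the RNA-binding protein YBX1 (4219 and 3949 TPM to 2598 and 2639 TPM). PTMA, HSP90AB1, TUBA1B, HNRNPA1 and the glycolytic enzyme ENO1 made up the rest, with log2 fold changes in CPM of -0.98, -0.75, -1.12, -0.59 and -0.47. Several of these genes have processed copies elsewhere in the genome that could take some of their reads.

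Promoters of rising genes were searched for the AP-1 letters because phorbol esters signal to AP-1. The search used TGAGTCA on both strands (TGACTCA on the other) in the 250 bases before the start of each gene, in RefSeq sequence of GRCh38.p14, where 11090 of the 17314 tested genes had an entry. The letters stood in 2.68% of those promoters, and in 4.16% of all 27305 promoters of the sequence set, tested or not. They stood in 5.14% of the 1732 that rose at least 2-fold and in 7.1% of the 479 that rose at least 8-fold. Of the 1134 that fell at least 2-fold, 1.76% held them. A match is a description of the letters, not evidence of a bound site. As examples, 4 of the named rises that hold the letters are shown, in order of falling fold change. Each is given with 30 bases to each side where the window allows, the AP-1 letters in capitals. The stretch of GZMB is chr14:24634368-24634434 (minus strand), that of CXCL8 chr4:73740402-73740468 (plus), that of GBP3 chr1:89022867-89022919 (minus) and that of SPRED3 chr19:38389701-38389767 (plus).
GZMB: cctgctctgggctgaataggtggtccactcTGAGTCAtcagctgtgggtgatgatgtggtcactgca
CXCL8: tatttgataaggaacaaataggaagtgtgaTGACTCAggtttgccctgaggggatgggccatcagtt
GBP3: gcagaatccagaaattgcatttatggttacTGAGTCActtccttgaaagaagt
SPRED3: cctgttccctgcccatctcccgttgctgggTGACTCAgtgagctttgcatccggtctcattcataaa
The matches begin 214, 137, 23 and 60 bases before the respective starts. GZMB rose as given above. CXCL8, a neutrophil chemokine, rose from 4.67 and 5.57 CPM to 114 and 186 CPM, GBP3, an interferon-induced GTPase, from 4.83 and 3.51 CPM to 62.6 and 53.6 CPM, and SPRED3, an inhibitor of MAP kinase signalling, from 0.576 and 0.628 CPM to 7.72 and 6.86 CPM.

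Most tested genes for the surface and granule proteins of platelets rose. Of 42 members that passed the filter on low counts, out of 49, 39 rose and 3 fell, with a median log2 fold change of 2.76 against 0.02 over all tested genes, of which 28.0% rose and 25.6% fell. List counts here and below cover only members that passed the filter, and are to be set against these shares over all tested genes. A member near 0 counts with Ceefourin 2 alone passed through the PMA libraries and could only be called higher, so these counts are descriptions. Such members with 0 counts, and with 1 to 3 counts, numbered 1 and 2 in the platelet list. Among the adhesion receptors, ITGB3, the beta chain of the fibrinogen receptor, rose from 112 and 102 CPM to 1081 and 1038 CPM (log2 fold change 3.31, SE 0.10). Its partner ITGA2B, which was already abundant, rose from 552 and 728 CPM to 1584 and 1859.8 CPM (log2 fold change 1.43, SE 0.16). GP6, the collagen receptor of platelets, rose from 139 and 160.3 CPM to 295 and 323 CPM, and GP1BA, which binds von Willebrand factor, from 4.07 and 2.98 CPM to 19.6 and 22.6 CPM. GP9, a partner of GP1BA, stayed low at 1.52 and 2.91 CPM with PMA but rose from 0.234 and 0.258 CPM. The tetraspanin CD9 had 0.0779 and 0.161 CPM without PMA and 63.7 and 55.6 CPM with it (log2 fold change 8.95, SE 0.26).

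Granule cargo rose from very low levels. VWF, the adhesive multimer of alpha granules and endothelium, had 3 counts over both Ceefourin 2 libraries and 10.5 and 8.92 CPM with PMA, a ratio of 400 with a 95% interval of 136 to 1940. THBS1, an alpha granule matrix protein, rose from 3.82 and 2.64 CPM to 67.5 and 65.7 CPM, and SELP, the granule membrane selectin, from 0.171 and 0.209 CPM to 2.03 and 3.11 CPM. The platelet chemokine gene PPBP rose from 0.0623 and 0.0161 CPM to 1.60 and 1.89 CPM, still a low level. PLEK, the main protein kinase C substrate of platelets, rose from 69.7 and 58.3 CPM to 199 and 205 CPM (log2 fold change 1.66, SE 0.13). The members that fell were RGS18, a brake on platelet G protein signals (20.4 and 20.9 CPM to 10.1 and 13.7 CPM), the ADP receptor gene P2RY1 (65 and 50.7 CPM to 39.4 and 35.5 CPM) and the junction protein gene JAM3 (62.6 and 56.3 CPM to 46.3 and 45.5 CPM). Without PMA plus Ceefourin 2 replicate 1, RGS18 (-0.59) and JAM3 (-0.38) were not called, and JAM3 was not called without replicate 2 of that group (-0.36) or without Ceefourin 2 replicate 1 (-0.31).

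**Figure D2:**
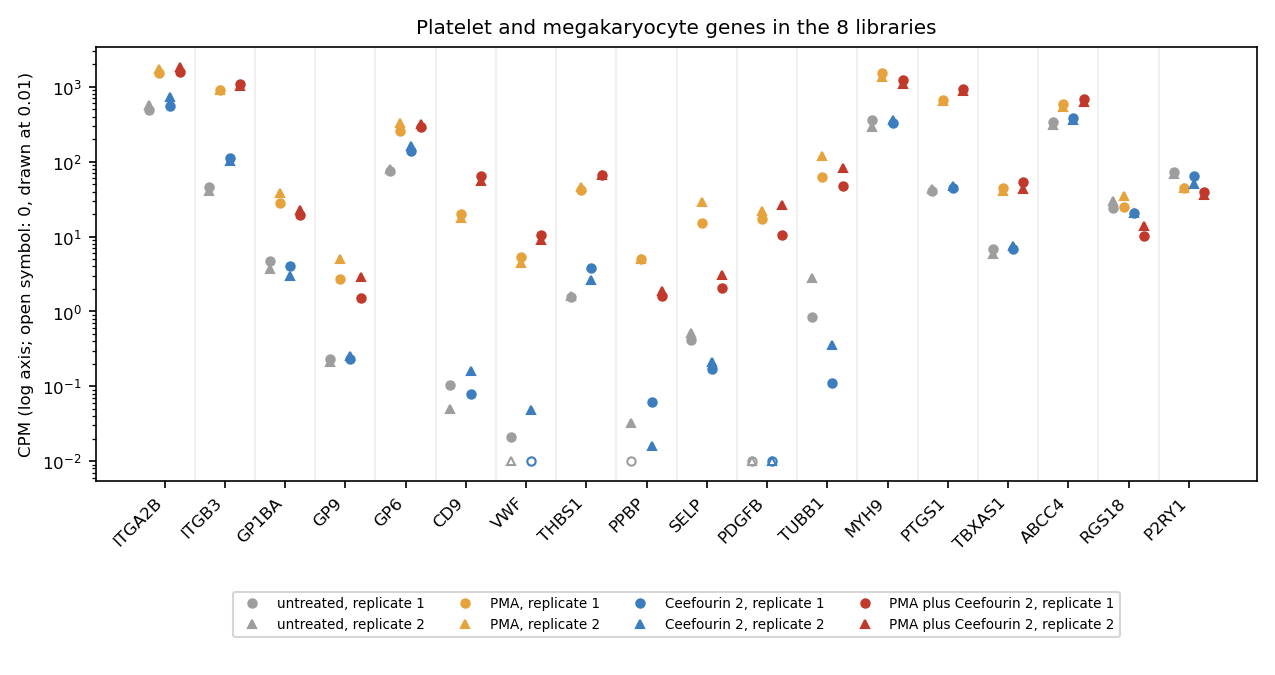
CPM on a log axis for 18 platelet and megakaryocyte genes in all 8 libraries; colour gives the group and the symbol the replicate, and open symbols are 0 counts. ITGB3, CD9, VWF, PDGFB and TUBB1 are higher in both PMA plus Ceefourin 2 libraries than in both Ceefourin 2 libraries, while RGS18 and P2RY1 are lower.

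The tubulins split by isotype. TUBB1, the beta tubulin of the platelet marginal band, rose from 0.109 and 0.354 CPM to 46.7 and 83.5 CPM (log2 fold change 8.13, SE 0.74), while the abundant isotypes TUBB and TUBA1B fell from 2506 and 2478 CPM to 1081 and 1137 CPM and from 2325 and 2251 CPM to 1011 and 1101 CPM. Reads of tubulin isotypes can be shared between copies. Members of the list that rose include MYH9, the platelet myosin heavy chain, from 334 and 359.8 CPM to 1242 and 1088 CPM, the crosslinker FLNA from 691 and 792 CPM to 2494 and 2508 CPM, VCL of adhesion sites from 75.4 and 67 CPM to 303 and 314 CPM and the actin-severing protein GSN from 8.38 and 12.3 CPM to 142 and 148 CPM. Of 33 cytoskeleton and tubulin genes 18 rose and 5 fell, with 9 falls on log2(TPM + 1) and 3 falls without the replicate 1 libraries of both PMA groups.

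Of 30 genes for granule formation and secretion 18 rose and 5 fell, where 28.0% and 25.6% of all tested genes did, and on log2(TPM + 1) 11 rose and 8 fell. RAB27B, which docks dense granules, rose from 0.234 and 0.419 CPM to 2.82 and 3.43 CPM, and VAMP8, the main fusion protein of platelet secretion, from 46.6 and 48.2 CPM to 124 and 139 CPM. SLC18A2, the amine transporter that fills dense granules, fell from 248 and 237 CPM to 117 and 120.4 CPM (log2 fold change -1.03, SE 0.09). In eicosanoid synthesis the thromboxane branch rose, with PTGS1, the platelet cyclooxygenase, from 44.5 and 47.6 CPM to 944 and 891 CPM (log2 fold change 4.32, SE 0.10) and thromboxane synthase TBXAS1 from 6.85 and 7.40 CPM to 53 and 43.6 CPM. PTGS2, the inducible cyclooxygenase, rose from 2.57 and 5.74 CPM to 16 and 25.5 CPM, and the leukotriene enzyme ALOX5 fell from 0.966 and 1.08 CPM to 0.325 and 0.206 CPM. Of 13 eicosanoid genes 7 rose and 5 fell. The falls numbered 3 without PMA plus Ceefourin 2 replicate 1 and 3 without Ceefourin 2 replicate 1.

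Transcription factors of the lineage moved both ways. Of 36 tested, 16 rose and 9 fell, where 28.0% and 25.6% of all tested genes did. The median of 0.21 became -0.06 on log2(TPM + 1), where 10 rose and 11 fell. Without the replicate 1 libraries of both PMA groups 10 rose. ETS1 rose from 0.732 and 0.999 CPM to 61 and 67.7 CPM (log2 fold change 6.21, SE 0.21), GFI1B from 122 and 153 CPM to 375 and 466 CPM, TAL1 from 501 and 428 CPM to 1334 and 1334 CPM and GATA1 from 94.2 and 106 CPM to 189 and 212 CPM. FLI1 and NFE2, which act late in megakaryocytes, rose by 0.39 and 0.45. Neither was called on log2(TPM + 1), with changes of 0.03 and 0.16. FLI1 was also not called without PMA plus Ceefourin 2 replicate 1 (0.45) or 2 (0.34) or Ceefourin 2 replicate 2 (0.32), nor NFE2 without Ceefourin 2 replicate 1 (0.30). RUNX1 at 0.24 and GATA2 at 0.29 did not pass the test, although RUNX1 passed without PMA plus Ceefourin 2 replicate 1 (0.35) and GATA2 without Ceefourin 2 replicate 1 (0.76). The lymphoid factor IKZF1 fell from 101 and 70.7 CPM to 14.6 and 11.4 CPM (log2 fold change -2.72, SE 0.24), RUNX3 from 58 and 45.9 CPM to 17.1 and 15.1 CPM, MYC from 1253 and 1230.4 CPM to 451 and 475 CPM, the erythroid factor KLF1 from 86 and 59.1 CPM to 27.5 and 29.1 CPM and MYB, a progenitor factor, from 221 and 183 CPM to 135 and 117 CPM. The myeloid factor CEBPA fell from 59.2 and 34.3 CPM to 11.1 and 8.63 CPM.

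Erythroid genes were divided. Of 42 tested, 20 fell and 13 rose (median -0.26), against 26 falls and 11 rises after PMA alone (median -1.04). The embryonic and fetal globins rose, HBE1 from 8.47 and 21.7 CPM to 169 and 440.1 CPM (log2 fold change 4.34, SE 0.80) and HBG2 from 1021 and 1223 CPM to 9095 and 11992 CPM, while the adult alpha globin HBA2 fell from 52 and 47.1 CPM to 18.6 and 19.9 CPM (log2 fold change -1.36, SE 0.13). HBG2 with HBG1, and HBA2 with HBA1, are near copies that can share reads. ALAS2, the first enzyme of erythroid heme synthesis, rose from 5.61 and 6.57 CPM to 17.4 and 23.4 CPM and the spectrin chain SPTB from 21.6 and 28.4 CPM to 94.3 and 118 CPM, whereas the transferrin receptor TFRC fell from 689.8 and 503 CPM to 347 and 334 CPM and carbonic anhydrase CA1 from 62 and 84.2 CPM to 8.83 and 11.2 CPM. No member was called in the difference between the responses.

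Markers of other cell types moved with PMA and are given with their levels. Of 13 osteoclast fusion and effector genes 12 rose and none fell (median 4.10), out of 15 in the list. Of the 12 that rose, 3 had 0 counts and 1 had 1 to 3 counts with Ceefourin 2 alone. Named members are DCSTAMP, a fusion receptor of osteoclasts, which rose from 0 and 0.113 CPM to 31.7 and 29.3 CPM, and the factor NFATC1, which rose from 3.08 and 4.17 CPM to 63.5 and 61.3 CPM. ACP5, the tartrate-resistant phosphatase of osteoclasts, rose only to 0.386 and 0.435 CPM. The list holds ITGB3 and MMP9, which other lists hold too. Of 10 monocyte and macrophage genes 6 rose and 2 fell, with 3 of each on log2(TPM + 1). CD68 rose from 152 and 179.6 CPM to 472 and 541 CPM and ITGAM fell from 14.8 and 19.8 CPM to 6.13 and 5.30 CPM, while CD14, at 0.187 and 0.193 and then 0.284 and 0.496 CPM, did not pass the test. COL1A1, a fibroblast collagen, rose from 0.140 and 0.129 CPM to 43.7 and 52.6 CPM, although the other 3 fibroblast markers stayed under 1 TPM in all 4 libraries. Of 6 tested fibroblast and stromal genes, out of 11, 3 rose and 1 fell (median 2.17). Their summed level went from between 3.39 and 4.09 TPM to between 120 and 125 TPM with PMA, where COL1A1 stood at 15.95 and 18.59 TPM. PECAM1, shared by platelets and endothelium, rose from 79.5 and 92.8 CPM to 487 and 497 CPM. CDH5, which defines endothelium, had 1 count over both Ceefourin 2 libraries and rose to 0.467 and 0.314 CPM, a ratio of 46.9 with a 95% interval of 8.03 to 1890, a call lost on log2(TPM + 1). Of 12 tested endothelial genes, 2 of which had 1 to 3 counts with Ceefourin 2 alone, 8 rose and 1 fell (median 0.84), with 5 and 2 on log2(TPM + 1). None fell without either library of PMA plus Ceefourin 2 or without Ceefourin 2 replicate 2, and 2 fell without Ceefourin 2 replicate 1. Of 9 tested lymphoid genes, out of 18, 4 rose and 3 fell, and GZMB is one of those that rose. The summed level of these members went from between 53 and 61.8 TPM without PMA to between 487 and 530 TPM with it. Most of that gain was GZMB alone, at 0.29 and 0.18 TPM without PMA and 456 and 420 TPM with it. Without PMA plus Ceefourin 2 replicate 1 or replicate 2, 1 lymphoid gene fell, and without Ceefourin 2 replicate 2 none did. Of 14 mast cell and basophil genes 5 rose and 5 fell, where 28.0% and 25.6% of all tested genes did. CPA3 fell from 15.5 and 22.2 CPM to 4.87 and 8.26 CPM. Without Ceefourin 2 replicate 2, or without PMA plus Ceefourin 2 replicate 2, 3 of the mast cell genes rose. Of 13 stem and progenitor genes 3 rose and 7 fell, with 1 rise on log2(TPM + 1) and without the replicate 1 libraries of both PMA groups. HOXA9, a factor of leukaemic progenitors, fell from 50.3 and 41.1 CPM to 12.4 and 10.2 CPM, and the progenitor marker CD34 rose from 5.95 and 4.88 CPM to 14.6 and 8.71 CPM. CD34 was not called on log2(TPM + 1) (0.62), on log2(TPM + 0.1) (0.78) or without the replicate 1 libraries of both PMA groups (0.69). The part that cells of another type could have in these values was not tested.

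Cell cycle genes fell almost without exception. Of 45 DNA replication genes 44 fell (median -1.21) and 1, RPA2, a single-strand binding subunit, rose (101 and 107 CPM to 125 and 132 CPM), and RPA2 was not called on log2(TPM + 1), without Ceefourin 2 replicate 1 (0.26) or without PMA plus Ceefourin 2 replicate 2 (0.27). The helicase subunits MCM2 and MCM3 fell from 208 and 234 CPM to 52 and 68.1 CPM and from 394 and 409 CPM to 115 and 126 CPM. The licensing factor CDT1 fell from 80.4 and 111 CPM to 22.9 and 31.2 CPM, the nucleotide enzymes RRM2 and TYMS from 231 and 197 CPM to 65.7 and 77 CPM and from 265 and 263 CPM to 76.1 and 92.6 CPM, and the sliding clamp PCNA from 146 and 123 CPM to 56.7 and 69 CPM. Of 47 mitosis and cytokinesis genes 45 fell and none rose (median -1.07). PLK1, a mitotic kinase, fell from 197 and 229 CPM to 58.8 and 76.7 CPM, MKI67, a proliferation marker, from 199 and 206 CPM to 85.9 and 81.7 CPM, and TOP2A, which untangles chromosomes, from 415 and 454 CPM to 201 and 242 CPM. Both medians correspond to falls near 2-fold.

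The regulators upstream of S phase split. The CDK inhibitors CDKN1A and CDKN2B rose from 21.3 and 17.1 CPM to 273 and 296 CPM and from 7.07 and 13.6 CPM to 129 and 185 CPM, and the cyclin CCND1 rose from 35.2 and 18.5 CPM to 176 and 168 CPM. CCNE1 fell from 80.2 and 54.7 CPM to 36.4 and 32 CPM and E2F1, the activator of S phase genes, from 19.9 and 21.1 CPM to 7.23 and 9.47 CPM. Promoters of the replication genes were searched for the E2F letters TTTCCCGC and TTTGGCGC on both strands, a search chosen after the values were seen. They stood in 3.01% of the 11090 promoters, in 12 of 40 replication promoters, in 2 of 40 mitosis promoters and in 4.23% of the promoters of genes that fell at least 2-fold. The stretches around the letters in CDT1 (chr16:88803724-88803788, plus strand), MCM3 (chr6:52284879-52284946, minus strand) and TYMS (chr18:657584-657651, plus strand) are shown with the E2F letters in capitals, as examples from the replication genes named above.
CDT1: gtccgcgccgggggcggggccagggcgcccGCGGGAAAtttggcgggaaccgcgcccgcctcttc
MCM3: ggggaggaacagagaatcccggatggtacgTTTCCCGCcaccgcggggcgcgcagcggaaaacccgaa
TYMS: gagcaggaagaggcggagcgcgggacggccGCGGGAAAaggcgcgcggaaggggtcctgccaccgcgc
The matches begin 35, 174 and 39 bases before the starts in RefSeq sequence of GRCh38.p14.

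Growth genes fell with the cell cycle. Of 38 ribosome biogenesis and MYC target genes 35 fell and none rose (median -0.84). NPM1 fell from 2076 and 2047 CPM to 991 and 1059 CPM, the nucleolar protein NCL from 1393 and 1379 CPM to 775 and 802 CPM, the helicase DDX21 from 506 and 524 CPM to 287 and 305 CPM and CAD, which starts pyrimidine synthesis, from 132 and 129.8 CPM to 64.6 and 49.9 CPM. Of 31 purine and thiopurine genes 20 fell and 5 rose, and 3 rose without PMA plus Ceefourin 2 replicate 2. The synthesis enzyme PAICS fell from 446 and 448 CPM to 170.1 and 169.9 CPM, and the nucleoside importer SLC29A1 fell from 200.5 and 181 CPM to 68.1 and 68.5 CPM. NT5E, a surface enzyme that makes adenosine, rose from 1.98 and 1.64 CPM to 128 and 129.7 CPM (log2 fold change 6.15, SE 0.24). Among ABC transporters 13 of 28 rose and 5 fell, with 11 falls on log2(TPM + 1) and 3 falls without the replicate 1 libraries of both PMA groups. Over all tested genes 28.0% rose and 25.6% fell. The drug exporter ABCB1 rose from 20.00 and 20.7 CPM to 136 and 159 CPM and the cholesterol exporter ABCA1 from 0.0623 and 0.161 CPM to 1.60 and 1.96 CPM. The mitochondrial transporter ABCB10 fell from 52.3 and 51.8 CPM to 18.8 and 19.9 CPM.

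Genes of the pathway that PMA opens were mostly higher at 48 hours. Of 24 early response factors 19 rose and 1 fell (median 1.97), and of 20 MAP kinase feedback genes 13 rose and 1 fell (median 1.98). The Ceefourin 2 replicates differed by more than 2-fold in 6 of the 24 early response genes, against 944 of 17314 genes in all. The AP-1 subunits JUN, JUNB and FOSL1 rose from 10.9 and 14.6 CPM to 115 and 195 CPM, from 96.2 and 108 CPM to 419.8 and 558 CPM and from 30.9 and 21.2 CPM to 83.9 and 90.7 CPM. EGR1 rose from 15.5 and 50.3 CPM to 132 and 162 CPM (log2 fold change 2.16, SE 0.49) and EGR3 from 2.32 and 1.61 CPM to 43.8 and 70.1 CPM. The phosphatases DUSP6 and DUSP5, which switch off ERK, rose from 75.4 and 126 CPM to 347 and 492 CPM and from 27.2 and 22.9 CPM to 128 and 156 CPM, and PHLDA1 rose from 3.60 and 7.27 CPM to 108 and 162 CPM.

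The protein kinase C list itself was mixed, with 14 rises and 5 falls in 31, and 8 of each on log2(TPM + 1). Falls numbered 3 without Ceefourin 2 replicate 1, without PMA plus Ceefourin 2 replicate 2, or without the replicate 1 libraries of both PMA groups. PRKCB rose from 334 and 355 CPM to 1223 and 1234 CPM, PRKCD from 27.4 and 23.1 CPM to 65.9 and 79.8 CPM and PRKCA from 21.9 and 22.6 CPM to 33.9 and 37.1 CPM, while the substrate MARCKS fell from 20.9 and 27.3 CPM to 6.97 and 5.84 CPM. RASGRP3, an activator of RAS driven by diacylglycerol, rose from 4.11 and 3.64 CPM to 37.3 and 48.7 CPM. RASGRP2, which activates RAP1 in platelets, did not pass the test (-0.16).

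Genes that make, break down or sense cyclic nucleotides, which ABCC4 exports, moved both ways. Of 38 tested, 15 rose and 8 fell, with 3 falls without PMA plus Ceefourin 2 replicate 2 and 5 without Ceefourin 2 replicate 1. Over all tested genes 28.0% rose and 25.6% fell. The median of 0.215 in this list became -0.067 on log2(TPM + 1), where 12 rose and 9 fell, and -0.088 on log2(TPM + 0.1). AKAP12, a scaffold for protein kinase A and protein kinase C, rose from 7.80 and 7.69 CPM to 1434 and 1091 CPM (log2 fold change 7.35, SE 0.30). The phosphodiesterases PDE2A and PDE5A, which break down cyclic nucleotides, rose from 0.685 and 0.644 CPM to 22.6 and 33.1 CPM and from 1.48 and 1.14 CPM to 23.5 and 28.3 CPM, while PDE3B fell from 28 and 22.9 CPM to 8.67 and 8.58 CPM and PDE3A, the main cyclic AMP phosphodiesterase of platelets, did not pass the test (6.96 and 6.04 and then 9.44 and 5.51 CPM). The regulatory subunit PRKAR2B rose from 64.9 and 59.4 CPM to 108 and 131 CPM. Of 16 RGS genes 10 rose and 3 fell, with RGS1 up from 0.0312 and 0.0483 CPM to 8.14 and 12.9 CPM.

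Cytokine and inflammatory genes rose. Of 35 cytokine and chemokine genes, out of 45, 31 rose and 2 fell (median 3.18), and 2 members had 0 counts and 4 had 1 to 3 counts before PMA. CCL2, a monocyte attractant, rose from 2.96 and 2.93 CPM to 104 and 126 CPM, CSF1, the macrophage growth factor, from 91.4 and 44.6 CPM to 477 and 615 CPM, CSF2 from 0.0935 and 0.129 CPM to 12 and 16.5 CPM and IL1B from 105 and 112 CPM to 178 and 223 CPM, while OSM fell from 24.6 and 36.6 CPM to 5.34 and 4.63 CPM. TNF, at 0 counts before, reached 1.95 and 1.92 CPM, at least 81.5-fold higher. In the NF-kB list 10 of 18 rose and 3 fell. The feedback inhibitor TNFAIP3 rose from 13.8 and 27.6 CPM to 256 and 313 CPM, the adaptor TRAF1 from 2.82 and 3.05 CPM to 47.5 and 58 CPM and the adhesion receptor ICAM1 from 3.33 and 5.85 CPM to 27.6 and 37.2 CPM.

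Of 47 interferon-stimulated genes 39 rose and 3 fell (median 2.17). IRF1, an activating factor of the response, rose from 19.1 and 18.1 CPM to 157 and 180.4 CPM, RSAD2 from 11.7 and 9.43 CPM to 63.4 and 63.5 CPM, IFIT1 from 0.467 and 0.870 CPM to 3.41 and 6.13 CPM and GBP2 from 5.76 and 6.35 CPM to 116 and 110.1 CPM. The PMA plus Ceefourin 2 replicates differed by more than 2-fold in 10 of these 47 genes, against 676 of 17314 in all. Without replicate 1 of that group 38 rose and none fell. Of 26 antigen presentation genes 17 rose and 2 fell. HLA-B rose from 8.51 and 11.5 CPM to 58 and 82.5 CPM, HLA-E from 139 and 186 CPM to 661 and 727 CPM and B2M, their shared light chain, from 425 and 411 CPM to 872 and 993 CPM, with the reservation that class I genes resemble each other and can share reads. The members that fell were the endoplasmic reticulum chaperones CANX (1272 and 1252 CPM to 794 and 804 CPM) and CALR (1897 and 1921 CPM to 1261 and 1267 CPM).

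Adhesion and matrix genes rose. Of 38 integrin and matrix genes 31 rose and 2 fell (median 2.33). The hyaluronan receptor CD44 rose from 421 and 378 CPM to 2426 and 2421 CPM, ITGA5 of the fibronectin receptor from 230.5 and 335 CPM to 1239 and 1174 CPM, ITGAV from 21.3 and 19 CPM to 120.2 and 135 CPM, ITGA2 of the collagen receptor from 5.31 and 4.21 CPM to 78 and 57.2 CPM and ITGB5 from 0.125 and 0.193 CPM to 21.7 and 25.8 CPM. ITGA4 fell from 111 and 87.9 CPM to 56.9 and 42.3 CPM. Of 30 proteases and inhibitors 24 rose and none fell (median 2.71).

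SERPINB2, an inhibitor of plasminogen activators, rose from 14 and 10.2 CPM to 2829.9 and 2767 CPM (log2 fold change 7.85, SE 0.27). The activator PLAU rose from 4.05 and 5.20 CPM to 101 and 119 CPM and its receptor PLAUR from 10.6 and 12 CPM to 107 and 133 CPM, so activator, receptor and inhibitor were all higher. The collagenase MMP1 rose from 12.5 and 8.12 CPM to 445 and 511 CPM and the stromelysin MMP10 from 0.187 and 0.322 CPM to 52 and 58.6 CPM, together with their inhibitor TIMP1 (98.2 and 109 CPM to 2016 and 2336 CPM). Of 35 lysosome and autophagy genes 29 rose and none fell (median 0.72), and 19 rose and 2 fell on log2(TPM + 1). The autophagy receptor SQSTM1 rose from 146 and 163 CPM to 849 and 1049 CPM and the cathepsin CTSL from 104 and 101 CPM to 702 and 769 CPM.

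**Figure D3:**
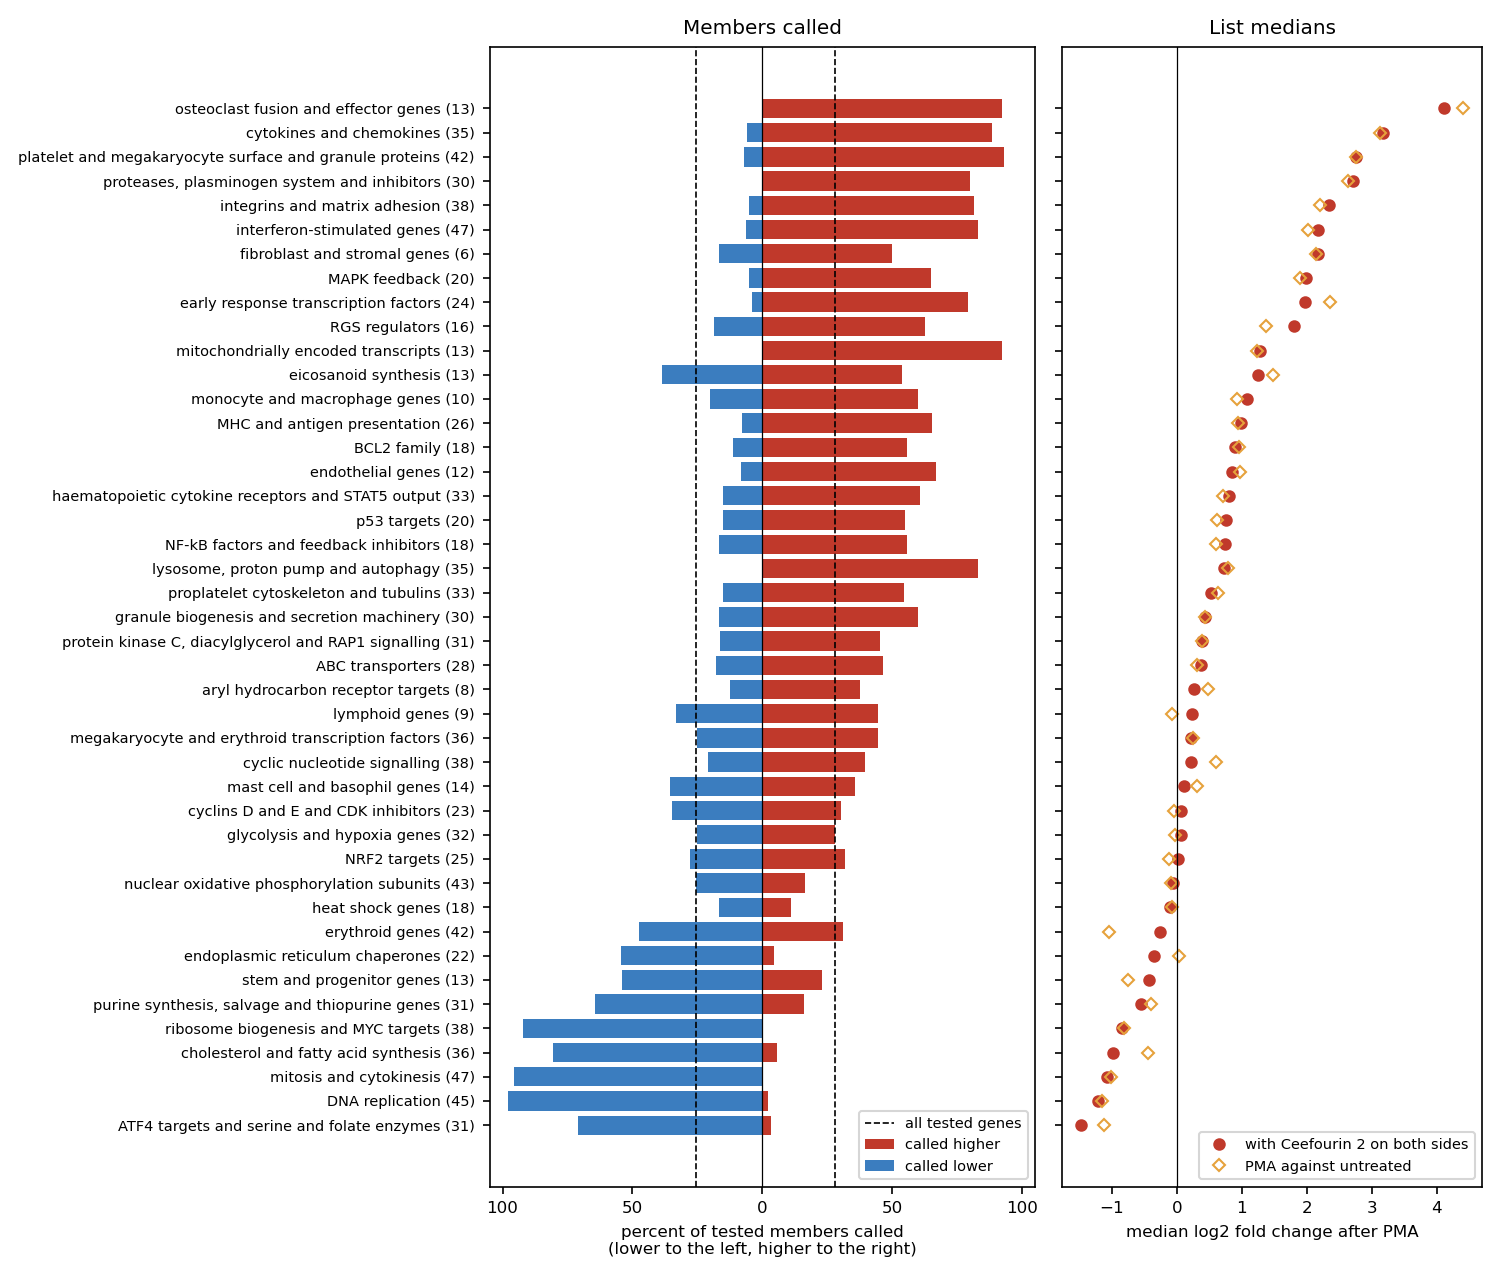
For each of 43 gene lists (number of tested members in brackets), bars give the percent of members called higher or lower in PMA plus Ceefourin 2 against Ceefourin 2, dashed lines the 28.0% and 25.6% over all tested genes, and symbols the median log2 fold change after PMA with Ceefourin 2 on both sides and after PMA alone. DNA replication, mitosis and ribosome genes fell, platelet, cytokine and integrin genes rose, and the erythroid and cholesterol medians lie furthest apart between the 2 responses.

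Sterol and fatty acid synthesis fell. Of 36 genes 29 fell and 2 rose (median -0.98), against 21 falls and 4 rises after PMA alone (median -0.44). HMGCS1, which feeds the mevalonate pathway, fell from 321 and 264 CPM to 107 and 73.9 CPM (log2 fold change -1.70, SE 0.26), and LSS, which closes the sterol rings, from 165 and 154 CPM to 46.5 and 41.5 CPM. The desaturase SCD fell from 1113 and 1100.4 CPM to 525 and 447 CPM and fatty acid synthase FASN from 1825 and 1901 CPM to 1152 and 939.9 CPM, the latter not called without PMA plus Ceefourin 2 replicate 2 (-0.69). SQLE, the squalene epoxidase, rose against its pathway, from 1113 and 933 CPM to 2695 and 2103 CPM, and so did the sterol carrier STARD4 (109 and 107 CPM to 244 and 199 CPM). Without the inhibitor HMGCS1 stood at 158 and 137 CPM in untreated cells and at 105 and 63.6 CPM with PMA, and FASN at 1438 and 1036 CPM in untreated cells and at 1460.2 and 940.0 CPM with PMA. The Ceefourin 2 libraries thus held the highest values of both genes among the 8 libraries. The difference between the responses was -0.89 for HMGCS1 (edgeR adjusted p = 0.65) and -0.79 for FASN (edgeR adjusted p = 0.658), neither called.

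ATF4 targets and the serine and folate enzymes fell, but 1 library weighed on them. Of 31 tested, 22 fell and 1 rose (median -1.47). PHGDH and PSAT1, enzymes of serine synthesis, fell from 77.3 and 228 CPM to 7.72 and 8.63 CPM and from 76.6 and 262 CPM to 11.4 and 13.7 CPM. ASNS, asparagine synthetase, fell from 54.2 and 142 CPM to 23.5 and 26.9 CPM, the mitochondrial folate enzyme MTHFD2 from 285 and 475 CPM to 112 and 130.3 CPM, and the amino acid transporter SLC7A5 from 326 and 601 CPM to 157 and 205 CPM. The cystine transporter SLC7A11, at 14.9 and 101 and then 10.6 and 19.7 CPM, did not pass the test. It passed with the replicate number as a block (-1.62, edgeR adjusted p = 0.0197). Its log2 fold change was -2.74 without Ceefourin 2 replicate 1 and 0.03 without Ceefourin 2 replicate 2. Ceefourin 2 replicate 2 was higher than replicate 1 by a median of 1.11 log2 units over the list, and 20 of the 31 members differed more than 2-fold between these replicates, against 944 of 17314 genes in all. With PMA none of the 31 did. Without Ceefourin 2 replicate 2, 18 fell and the median was -0.75, and without Ceefourin 2 replicate 1, 30 fell. Without the replicate 1 libraries of both PMA groups 13 fell. In untreated cells, too, replicate 2 lay above replicate 1 for CHAC1, at 8.81 and 61.2 CPM. PHGDH and PSAT1 were lower in both PMA libraries than in either Ceefourin 2 library.

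Endoplasmic reticulum chaperones fell in 12 of 22 cases and rose in 1, against 5 falls and 5 rises after PMA alone. XBP1, a factor of the unfolded protein response, fell from 195 and 230.3 CPM to 77.8 and 59.7 CPM, while HSPA5 at -0.29 did not pass the test. Of 25 NRF2 targets 8 rose and 7 fell, shares near the 28.0% and 25.6% of all tested genes. The split did not hold its size without Ceefourin 2 replicate 2 or without PMA plus Ceefourin 2 replicate 2. The median of 0.01 then became 0.03 and -0.17, respectively. On log2(TPM + 1) 5 rose and 9 fell, with a median of -0.33. Of 8 aryl hydrocarbon receptor targets 3 rose, among them AHRR from 10.3 and 8.38 CPM to 58.8 and 48.8 CPM.

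Mitochondrially encoded transcripts rose in 12 of 13 cases (median 1.27), with MT-CO1, a subunit of cytochrome oxidase, from 6369 and 7004 CPM to 27254 and 14833 CPM. PMA plus Ceefourin 2 replicate 1 was the highest of the 4 libraries, and replicate 2 lay a median of 0.77 log2 units below it. None of the 13 rose without that library (MT-CO1 at 1.15), none rose without Ceefourin 2 replicate 1, and 5 rose without Ceefourin 2 replicate 2. On log2(TPM + 1) 1 rose. Of 43 nuclear subunits of oxidative phosphorylation 7 rose and 11 fell, and on log2(TPM + 1) 2 rose and 21 fell. Without PMA plus Ceefourin 2 replicate 1 the numbers were 8 and 5, and without replicate 2 of that group 3 and 8. Without Ceefourin 2 replicate 1 they were 3 and 9, and without Ceefourin 2 replicate 2 7 and 5. The part of RNA quality in the mitochondrial share was not tested.

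The glycolysis and hypoxia list moved both ways. The glucose importers SLC2A3 and SLC2A1 rose from 162 and 224 CPM to 1705 and 1745 CPM and from 275 and 308 CPM to 985 and 1189 CPM, and LDHA fell from 767 and 745 CPM to 426 and 406 CPM, in a list with 9 rises and 8 falls of 32, shares near the 28.0% and 25.6% of all tested genes, and 8 rises and 13 falls on log2(TPM + 1). In the BCL2 family 10 of 18 rose and 2 fell. The survival gene BCL2 fell from 50.6 and 34.9 CPM to 14.3 and 8.79 CPM, whereas the survival genes MCL1 and BCL2L1, the latter used by platelets, rose from 205 and 204 CPM to 567 and 602 CPM and from 155 and 152 CPM to 372 and 355 CPM. The death activator BMF rose from 0.545 and 1.61 CPM to 36.1 and 50.6 CPM. Of 20 p53 targets 11 rose and 3 fell, and none fell without the replicate 1 libraries of both PMA groups. BTG2, a brake on division, rose from 9.05 and 12.6 CPM to 98.4 and 152 CPM. Among 33 cytokine receptor and STAT5 genes 20 rose and 5 fell, with 3 falls without PMA plus Ceefourin 2 replicate 2. CSF2RB, the shared beta chain for several growth factors, rose from 23.6 and 28.1 CPM to 66.1 and 76.6 CPM.

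The response with the inhibitor on both sides was close to the response without it. These comparisons share no library, but they share the estimate of spread. PMA against untreated cells gave 4838 rises and 4443 falls (27.9% and 25.7% of tested genes). Of the genes that rose, 4146 were shared, which is 85.6% of those with the inhibitor and 85.7% of those without, and 3792 falls were shared (85.7% and 85.3%). Only 8 genes were called in opposite directions. Across the 17314 genes the fold changes correlated at 0.898 (Pearson) and 0.903 (Spearman), as a description, since genes are not independent. The median size of change was 0.58 log2 units with the inhibitor and 0.59 without.

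**Figure D4:**
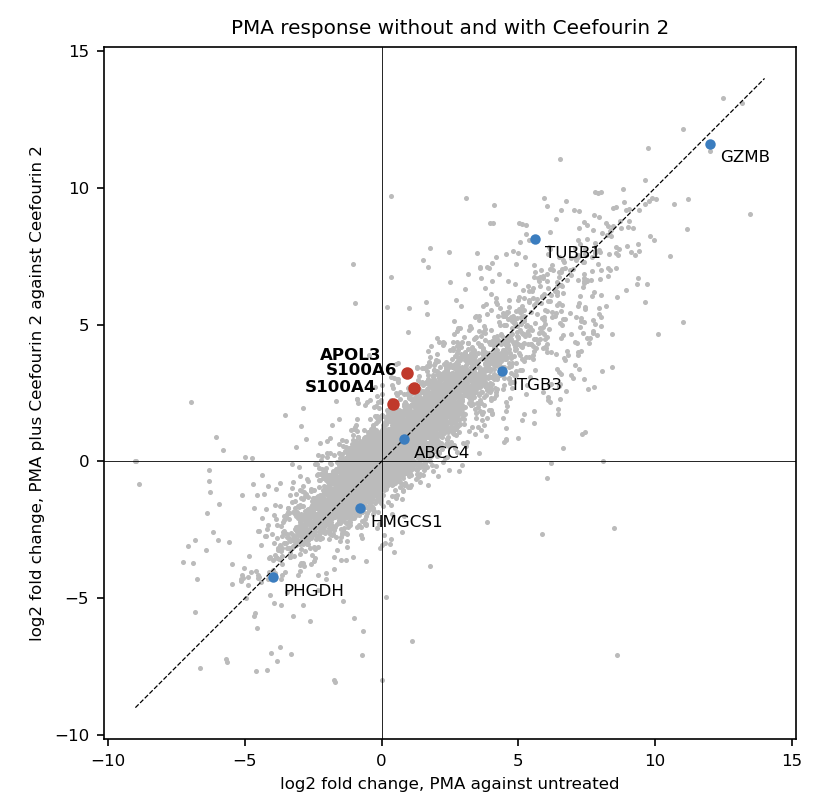
Each point is 1 tested gene, with the log2 fold change of PMA against untreated on the horizontal axis and of PMA plus Ceefourin 2 against Ceefourin 2 on the vertical axis; the dashed line marks equal values. Most genes follow the line, APOL3, S100A4 and S100A6 (red) lie above it, and the genes in blue are named in the text.

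The difference of the responses was called for 2 genes higher and 0 lower, 0.0116% and 0.0% of tested genes (edgeR). At an unadjusted p below 0.05 there were 612 higher and 622 lower, and DESeq2 called 81 higher and 126 lower. A further 1323 genes were called only with the inhibitor and 1335 only without it, and of neither set was any called in the difference by edgeR, so these are shown neither to differ nor to be alike. The number of calls in the difference varied with the method and setting, from 0 to 171 higher and from 0 to 243 lower. Both upper ends came from edgeR without a filter on low counts, a setting taken up with S100A6 below.

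APOL3, an apolipoprotein L gene on chromosome 22 from 36140330 to 36166177, rose from 3.10 and 3.01 CPM to 31.8 and 26.4 CPM with the inhibitor (log2 fold change 3.25) and stood at 5.34 and 6.47 CPM in untreated cells and 10.6 and 12 CPM with PMA alone (0.93). The difference was 2.31 (SE 0.22, edgeR adjusted p = 0.047). APOL3 was lowest in the Ceefourin 2 libraries and highest with both agents. S100A4, a calcium-binding protein tied to cell motility, on chromosome 1 from 153543613 to 153550136, rose from 27.2 and 24.1 CPM to 116 and 102 CPM (2.09), against 97.4 and 101 and then 123 and 139.5 CPM without the inhibitor (0.40). The difference was 1.68 (SE 0.15, edgeR adjusted p = 0.047). The Ceefourin 2 libraries were the low ones, and the other 6 libraries lay between the lowest untreated and the highest PMA library. S100A6, a relative of S100A4, rose from 136 and 158 CPM to 958 and 936 CPM, against 265 and 338 and then 690.1 and 670.2 CPM without the inhibitor. It was likewise lowest with Ceefourin 2 alone, and its difference of 1.52 missed the threshold (edgeR adjusted p = 0.0569). It passed by DESeq2 (1.49, adjusted p = 1.79e-10) and with limma on log2(TPM + 1) (1.48, adjusted p = 0.0339), so the call depends on the method. In edgeR without a filter on low counts it passed too (1.5, adjusted p = 1.02e-19). That fit also gave SLC7A11 an edgeR adjusted p of 1.69e-37 after PMA with the inhibitor. SLC7A11 was not called with the filter and its Ceefourin 2 replicates stood far apart, so p values of the unfiltered fit are not relied on. The calls of APOL3 and S100A4 did not hold when any 1 of the 8 libraries was left out. The adjusted p of edgeR then ran from 0.0721 to 0.239 for APOL3 and from 0.0596 to 0.239 for S100A4, while the differences ranged from 2.14 to 2.44 and from 1.59 to 1.78.

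The platelet, cell cycle and signalling genes above had values side by side in both responses. ITGB3 had a log2 fold change of 3.31 with the inhibitor and 4.40 without, TUBB1 8.13 and 5.61, and CD9 8.95 and 7.97. MCM3 had -1.73 and -2.15, and PLK1 -1.65 and -1.47. EGR1 had 2.16 and 4.53, RGS18 -0.79 and 0.16, HBG2 3.23 and 2.37, and ITGAM -1.60 and -3.90. The difference was not called for any of these genes, nor for any member of the 43 lists, and values that lie apart here are not shown to differ.

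**Figure D5:**
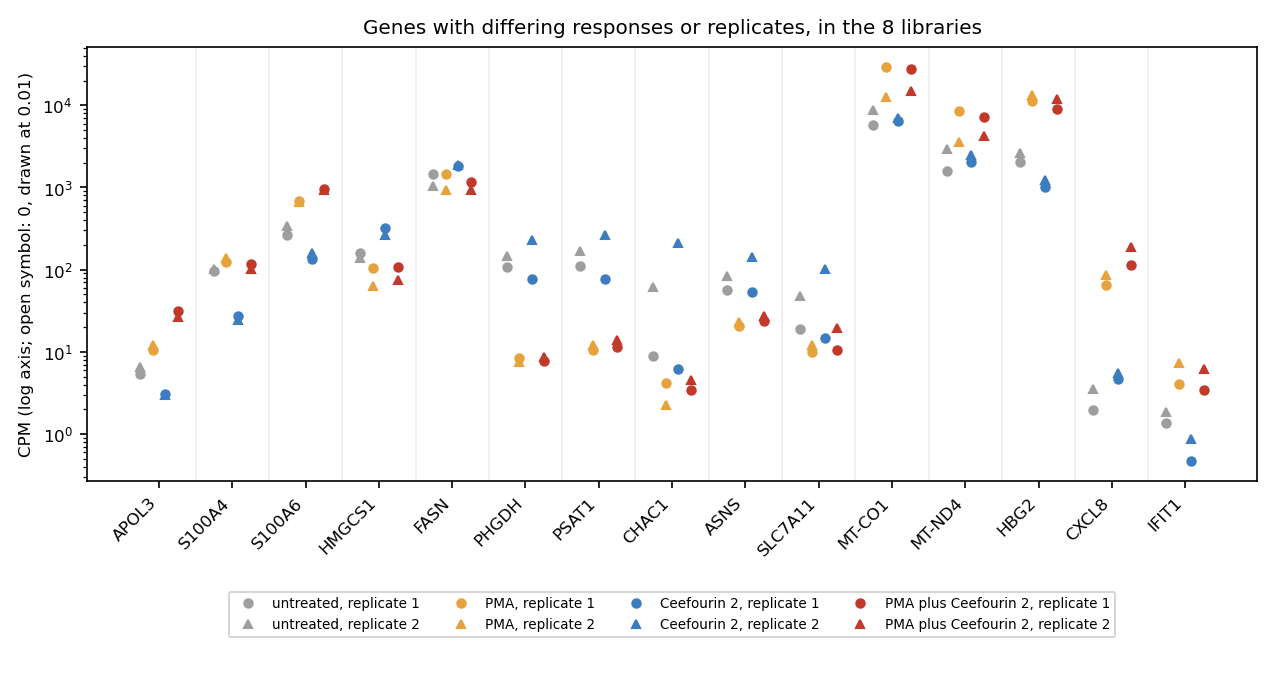
CPM on a log axis for 15 genes in all 8 libraries; colour gives the group and the symbol the replicate. APOL3, S100A4 and S100A6 are lowest in the 2 Ceefourin 2 libraries, CHAC1, PHGDH and PSAT1 are far higher in Ceefourin 2 replicate 2 than in replicate 1, and MT-CO1 is highest in replicate 1 of both groups with PMA.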

How the data were processed

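Stranded RNA sequencing of the 8 MEG-01 libraries was used as the authors deposited it, at gene level. The deposited expected counts, which are not normalized, and the deposited TPM, which are scaled by transcript length and library, came from RSEM 1.3.1 after STAR 2.7 alignment to hg38, per the submitters' processing notes. No source used here gives the annotation release or the strand setting of the counting. Counts were rounded to whole numbers, and genes were kept by edgeR's filterByExpr (17314 of 60754), then scaled by TMM and tested with edgeR 4.0.16 (R 4.3.3) in 1 quasi-likelihood fit of all 8 libraries with a mean for each group, and p-values were adjusted by Benjamini-Hochberg over all tested genes. Counted fragments ran from 44430292 to 89950886 per library, and the biological coefficient of variation was 13.6%. On simulated counts for this comparison (16938 genes, 200 changed) the fit recovered 75% of 2-fold and 99% of 4-fold changes, and 5.43% of its 184 calls were unchanged genes.

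The comparison of PMA plus Ceefourin 2 with Ceefourin 2, and its difference from PMA against untreated, were contrasts in that fit. Alternatives were DESeq2 1.42.0, limma 3.58.1 on log2 TPM with a pseudocount of 1 or 0.1, other filters and scaling, the replicate number as a block, and leaving out libraries. The genes and lists were chosen with earlier results of these data known. The named genes are ABCC4, the 10 largest called rises and falls of protein-coding genes with a mean of at least 5 CPM, the 8 largest gains and losses in TPM, the genes called in the difference, and from each list its key members with its 3 largest rises and falls. S100A6 in the difference and the genes under other observations were chosen after their values were seen. Genes whose call was lost without 1 library are given with that value or were left out. Gene positions are from GENCODE for GRCh38 by gene identifier. Some of the genes that this rule names are not reported here.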

Additional observations from a re-analysis of the deposited data

Results flagged for a closer look

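The PMA effect of APOL3 differed between cells with and without Ceefourin 2 by 2.31 log2 units in edgeR's test of the difference itself, with PMA effects of 3.25 with the inhibitor and 0.93 without. The PMA effect of S100A4 differed by 1.68 log2 units in the same test, with effects of 2.09 and 0.40. In both genes each library with PMA and the inhibitor lay above each library with the inhibitor alone, which bears on that PMA effect and not on the difference. Neither call of the difference held when any 1 of the 8 libraries was left out. Both were also lost where 1 CPM was required in 2 libraries (edgeR adjusted p = 0.05845). On log2(TPM + 0.1) neither was called (limma adjusted p = 0.0994 for APOL3 and 0.142 for S100A4), nor was S100A4 on log2(TPM + 1) (limma adjusted p = 0.05004).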

How the results depend on the processing

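The number of genes called after PMA in the presence of Ceefourin 2 was stable except with TPM and with fewer libraries. Genes called higher numbered 2919 on log2(TPM + 1) and 3029 on log2(TPM + 0.1), and genes called lower numbered 2946 without the replicate 1 libraries of both PMA groups, an alternative added after the data were seen. Without 1 library at a time the counts ran from 3857 to 4733 higher and from 3317 to 4432 lower. The number of genes called in the difference depended on most choices. Higher and lower calls numbered 4 and 1 with DESeq2 size factors in edgeR, 171 and 243 without a filter on low counts, 0 and 0 where 1 CPM was required in at least 2 libraries, 81 and 126 by the DESeq2 test, 7 and 12 on log2(TPM + 1) and 0 and 1 on log2(TPM + 0.1). They numbered 0 and 0 without the replicate 1 libraries of both PMA groups, and ran from 0 to 2 and from 0 to 1 without 1 library at a time. The p values of the fit without a filter are not relied on, as given for S100A6 above. With the replicate block 5667 genes were called higher and 5345 lower, and the difference 114 higher and 133 lower. S100A6 was among the 114 (1.51, edgeR adjusted p = 0.00969). Of the named genes that had not passed the test, SLC7A11 (-1.62), HSPA5 (-0.28) and RUNX1 (0.24) passed with the block. Their edgeR adjusted p values were 0.0197, 0.02655 and 0.0123. The correlations of same-numbered deviations between groups ran from 0.137 to 0.363, with 2 replicates in a group, which does not establish that the numbers pair the libraries. Of 198 named genes called after PMA in the presence of the inhibitor, none changed sign under the alternatives run, 10 lost the call without 1 of the 8 libraries, 10 on TPM and none with DESeq2, DESeq2 size factors or the block. The sign changed for 4 named genes that had not passed the test. Without 1 library at a time GATA2 ran from -0.076 to 0.76, SLC7A11 from -2.74 to 0.034 and PDE3A from -0.23 to 0.54, with the lowest for GATA2 and the highest for SLC7A11 without Ceefourin 2 replicate 2. RUNX1 became -0.016 with either TPM pseudocount, and PDE3A became -0.081 on log2(TPM + 1), -0.15 on log2(TPM + 0.1) and -0.23 without the replicate 1 libraries of both PMA groups. Where a value changed, the cause was not tested. With 2 libraries in a group and 75% of simulated 2-fold changes recovered, a gene that did not pass the test is not shown to be unchanged. The simulation changed 200 of 16938 genes, all above 1 CPM with Ceefourin 2, whereas 53.5% of tested genes were called in the data. It did not cover the difference of the responses, so the 75% is not the recovery there or for genes at lower levels.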

Other observations

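Genes that lie beside APOL3 and S100A4 in gene families were looked at after their values were seen. APOL1, of the same family as APOL3, went from 20.8 and 18.3 CPM to 93.5 and 72.5 CPM with the inhibitor on both sides and from 37.5 and 32 CPM to 70.8 and 57 CPM without it. Its difference of 1.20 was not called (edgeR adjusted p = 0.187). S100A10, which pairs with an annexin at the membrane, went from 27.7 and 29 CPM to 41.4 and 39.9 CPM with the inhibitor and from 28.5 and 30.4 CPM to 36.1 and 32.3 CPM without it, a difference of 0.30 (edgeR adjusted p = 0.732). S100A11 went from 49.96 and 56.1 CPM to 128 and 126 CPM with the inhibitor and from 44 and 49.2 CPM to 112 and 102 CPM without it, a difference of 0.06 (edgeR adjusted p = 1). None of these 3 differences passed the threshold.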
